A study of Mus musculus with 39 samples.

Results

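Gasdermins are a family of proteins that form pores in membranes, and 6 of their mouse genes were followed here through 3 stretches of the intestine in 2 inbred strains. The genes were taken by name: Gsdmc, Gsdmc2, Gsdmc3, Gsdmc4, Gsdmd and Gsdma, which are 6 of the 34598 gene names in the expression tables. All 6 names were found. RNA was sequenced after ribosomal RNA depletion from colon, ileum and duodenum/jejunum of 6 BALB/cJ and 7 C57BL/6J mice, so that each mouse gave 3 libraries and the series has 39. Strain and tissue are the only differences between groups that the labels name. Age, sex, housing and treatment are not given in the sources used here.

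A gasdermin lies idle in the cell until a protease cuts it in the middle. The released N-terminal piece assembles into a ring in the membrane, through which small cytokines leave and ions flow, and the cell may then rupture. Gsdmd is cut by the inflammatory caspases that inflammasomes switch on, and its pores pass interleukin 1 beta and interleukin 18. Human GSDMC is a single gene and a caspase 8 substrate, while the mouse carries a row of Gsdmc copies. Those copies are known in the gut as epithelial genes that type 2 cytokines induce through the transcription factor Stat6. Gsdma belongs to a group of genes best known from skin and the upper digestive tract.

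The Gsdmc genes lie side by side on chromosome 15 of the C57BL/6J reference genome (build GRCm38, GENCODE annotation), within 150 kb. All the coding copies are on the minus strand: Gsdmc at chr15:63775968-63808759, Gsdmc2 at chr15:63824346-63845177, Gsdmc3 at chr15:63857724-63878558 and Gsdmc4 at chr15:63891264-63912297. The pseudogenes Gsdmcl1, Gsdmcl2 and Gsdmcl-ps sit between and after them on the plus strand. Gsdmd is elsewhere on the same chromosome, at chr15:75862327-75867408 on the plus strand, and Gsdma is at chr11:98664351-98677708 on the plus strand.

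How alike the copies are bears on how well reads can be told apart, so stretches of the 3 most abundant copies are shown. The start of the coding sequence is nearly the same in Gsdmc2, Gsdmc3 and Gsdmc4: over coding bases 1 to 90, which lie in exon 1 of 11, only 2 positions differ. Capitals mark the positions at which the 3 genes are not all alike.
Gsdmc2, chr15:63835854-63835943: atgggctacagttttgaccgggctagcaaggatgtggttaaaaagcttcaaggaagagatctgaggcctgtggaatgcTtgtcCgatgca
Gsdmc3, chr15:63869208-63869297: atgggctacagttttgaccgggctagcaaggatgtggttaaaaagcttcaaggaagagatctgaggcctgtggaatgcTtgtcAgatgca
Gsdmc4, chr15:63902841-63902930: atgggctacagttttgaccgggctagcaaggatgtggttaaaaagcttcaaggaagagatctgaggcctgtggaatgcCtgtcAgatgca
The stretch in which the 3 differ most without a gap spans exons 6, 7 and 8, at coding bases 778 to 867 of Gsdmc2 and Gsdmc3 and 784 to 873 of Gsdmc4. Here 22 of 90 positions differ, which helps to tell reads of these 3 genes apart in the reference sequence. The stretch was not compared with Gsdmc or the pseudogenes.
Gsdmc2, within chr15:63826879-63828033: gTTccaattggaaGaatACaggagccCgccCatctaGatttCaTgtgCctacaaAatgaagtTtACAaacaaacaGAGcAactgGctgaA
Gsdmc3, within chr15:63860309-63861452: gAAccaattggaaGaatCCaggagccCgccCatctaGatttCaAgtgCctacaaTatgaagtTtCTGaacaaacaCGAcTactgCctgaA
Gsdmc4, within chr15:63893826-63894939: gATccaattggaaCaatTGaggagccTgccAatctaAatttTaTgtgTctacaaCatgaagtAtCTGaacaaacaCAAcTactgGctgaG

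Across the whole coding sequence Gsdmc2 and Gsdmc3 share 97.1% of aligned bases, and each shares 93.8% with Gsdmc4. Gsdmc is more distant, at 87% to 87.5% of the other copies, and Gsdmd shares 57.1% to 59.8% with the 5 other members. The levels come from kallisto, which splits reads among transcripts by short words of sequence. Of the 31-base words of each gene's annotated transcripts, the share found in no other gene was 36.1% for Gsdmc2, 40.5% for Gsdmc3, 48.8% for Gsdmc4, 76.1% for Gsdmc, 83.2% for Gsdma and 100% for Gsdmd. The split among Gsdmc2, Gsdmc3 and Gsdmc4 is therefore less certain than their sum. The reference is a C57BL/6J sequence, and whether BALB/cJ sequence differences moved reads between the copies was not tested.

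The tables give levels in TPM, a transcript's share of the library per unit of transcript length, which can be set side by side between genes, on the scale log2(TPM + 1). TPM keeps no record of read number, so depth is unknown and no counting error is given; errors are SD over mice. Regional markers followed the tissue labels in all but 2 libraries. Fabp6, the ileal bile acid binding protein, was at 3766 to 11144 TPM in 12 ileum libraries and at 2.99 to 96 TPM in 12 duodenum/jejunum libraries. Tmprss15, the proximal enzyme enteropeptidase, was at 0.0122 to 0.699 TPM and 12.2 to 68.8 TPM in the same libraries. Both exceptions come from C57BL/6J mouse 2. Its library labelled ileum had 22.1 TPM of Fabp6 with 51.2 TPM of Tmprss15. In its other small intestinal library, labelled duodenum/jejunum, these were at 6111 and 39.2 TPM. Most member results that rest on these libraries are given with and without mouse 2. Car1, a colonocyte carbonic anhydrase, was at 1819 TPM or more in all 13 colon libraries and at 15.1 TPM or less in all 26 small intestinal ones. The gastric and squamous marker list summed to 2.08 to 4414 TPM in the BALB/cJ and 11.1 to 3232 TPM in the C57BL/6J duodenum/jejunum. The level of these markers thus varied between those libraries in both strains, and the tissue they came from was not tested.

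**Figure D1:**
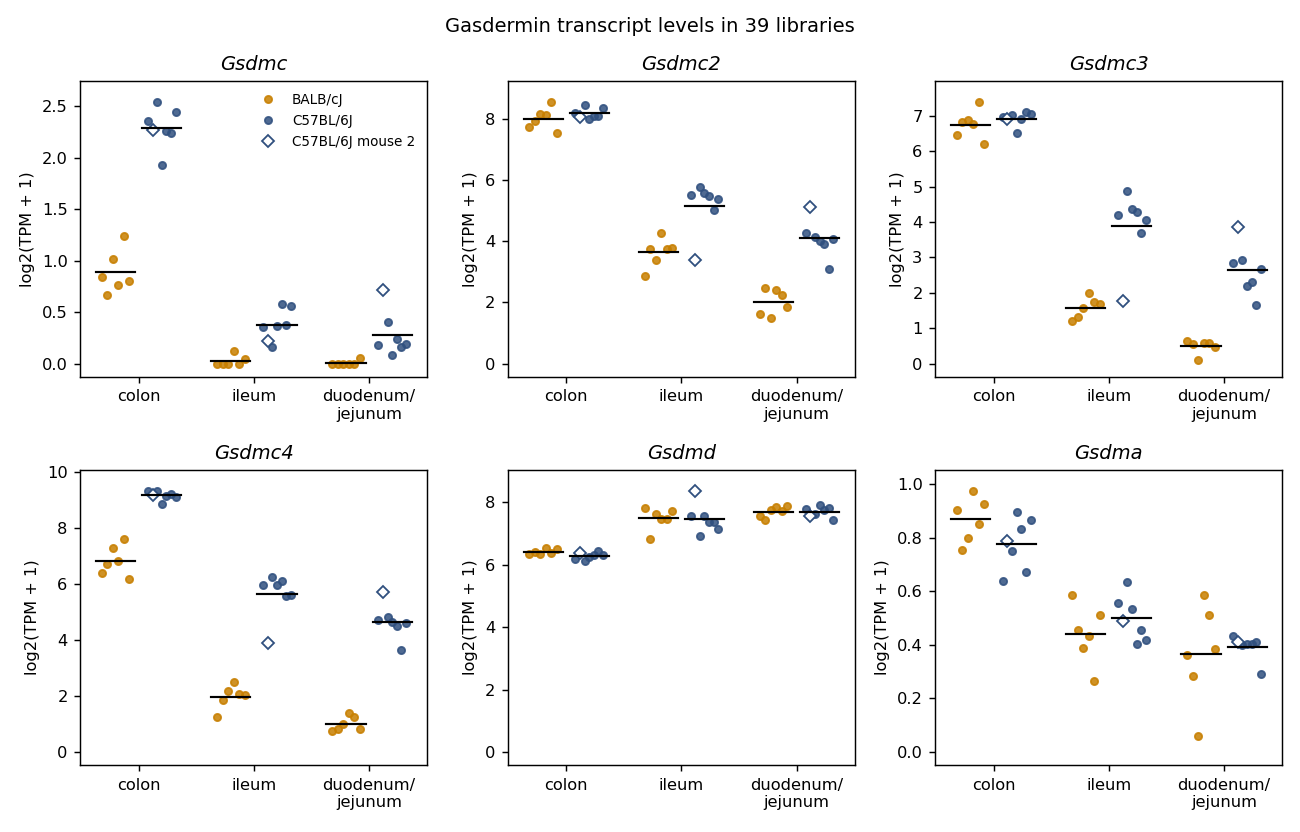
Level of each of the 6 gasdermin genes as log2(TPM + 1) in every library, by tissue and strain. Each point is 1 library, black lines are group means and open diamonds are the libraries of C57BL/6J mouse 2. Gsdmc2, Gsdmc3 and Gsdmc4 are highest in the colon, and Gsdmd is lowest there. For Gsdmc2, Gsdmc3 and Gsdmc4 the mouse 2 libraries lie outside the other C57BL/6J libraries in the ileum and duodenum/jejunum. They also do so for Gsdmd in the ileum and Gsdmc in the duodenum/jejunum.

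In the colon Gsdmc2, Gsdmc3 and Gsdmc4 were abundant transcripts, and they differed between strains in an uneven way. Gsdmc4 and the rare copy Gsdmc were several-fold lower in BALB/cJ than in C57BL/6J, whereas Gsdmc2, Gsdmc3 and Gsdmd were not called different, a call being an adjusted p under 0.05. Gsdmc4 ranged from 72.7 to 194 TPM in the 6 BALB/cJ mice (median 109) and from 463 to 650 TPM in the 7 C57BL/6J mice (median 587). Every BALB/cJ colon was thus below every C57BL/6J colon. The means were 121 ± 45.7 (SD, n = 6) and 581 ± 61.5 TPM (SD, n = 7), 4.81-fold higher in C57BL/6J. On the log2(TPM + 1) scale BALB/cJ minus C57BL/6J was -2.33 ± 0.19 (SE; limma, Benjamini-Hochberg adjusted p = 3.4e-07), with a 95% interval from -2.73 to -1.93.

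Gsdmc was scarce but separated the strains as fully. It lay between 0.589 and 1.37 TPM in BALB/cJ colon (median 0.769) and between 2.82 and 4.83 TPM in C57BL/6J colon (median 3.82). The means of 0.872 ± 0.286 (n = 6) and 3.94 ± 0.631 TPM (n = 7) differed by -1.40 ± 0.11 on the log2 scale (SE, limma, adjusted p = 4.2e-07). Only 2 BALB/cJ colons reached 1 TPM, so the gene entered the test through its C57BL/6J values, and its 4.52-fold ratio rests on levels near 1 TPM in BALB/cJ.

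Gsdmc2 was the leading copy in BALB/cJ colon and showed no called strain difference there. It ranged from 184 to 372 TPM in BALB/cJ (median 259) and from 252 to 351 TPM in C57BL/6J (median 272), and the groups overlapped widely. The means were 262 ± 66.2 and 288 ± 35.4 TPM, and the log2 difference of -0.17 had a 95% interval from -0.46 to 0.13 (limma, adjusted p = 0.417). Gsdmc3 gave the same picture at a lower level, with 72.6 to 167 TPM in BALB/cJ (mean 111 ± 32.4) and 89.9 to 138 TPM in C57BL/6J (mean 121 ± 15.4). Its log2 difference was -0.17, with an interval from -0.50 to 0.17 (limma, adjusted p = 0.473). Both intervals leave out a difference as large as that of Gsdmc4.

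Gsdmd, the substrate of the inflammatory caspases, was held within a narrow range in the colon. It was at 80.4 to 92.2 TPM in BALB/cJ (mean 84.7 ± 4.91) and at 68.8 to 85.8 TPM in C57BL/6J (mean 77.2 ± 5.96). The log2 difference of 0.13 ± 0.06 (SE) was not called (limma, adjusted p = 0.1). It was called, at 0.16 with an adjusted p of 0.047, only when C57BL/6J mouse 6 was left out. Gsdma stayed under 1 TPM in each of the 39 libraries and was not tested between strains. Its colon means were 0.828 ± 0.104 TPM in BALB/cJ and 0.717 ± 0.115 TPM in C57BL/6J.

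Of the 5 members tested in the colon, 2 were called, both lower in BALB/cJ and 1 of them, Gsdmc, tested through its C57BL/6J values, where 25.3% of the 15769 genes tested were called between strains in either direction. Other cell types differed between the strains' colons as well. The 14 surface and mature colonocyte markers summed to 9710 to 12945 TPM in BALB/cJ (median 11012) and to 11203 to 14592 TPM in C57BL/6J (median 14085). Of the 14, 5 were higher and 4 lower in BALB/cJ. Among macrophage, dendritic cell and neutrophil markers 7 of 9 tested were higher in BALB/cJ, and among crypt base and cycling cell markers 6 of 9 were lower. The part of these cell types in the gasdermin differences was not tested. In bulk tissue, fewer cells of a type and less RNA per cell cannot be told apart.

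**Figure D2:**
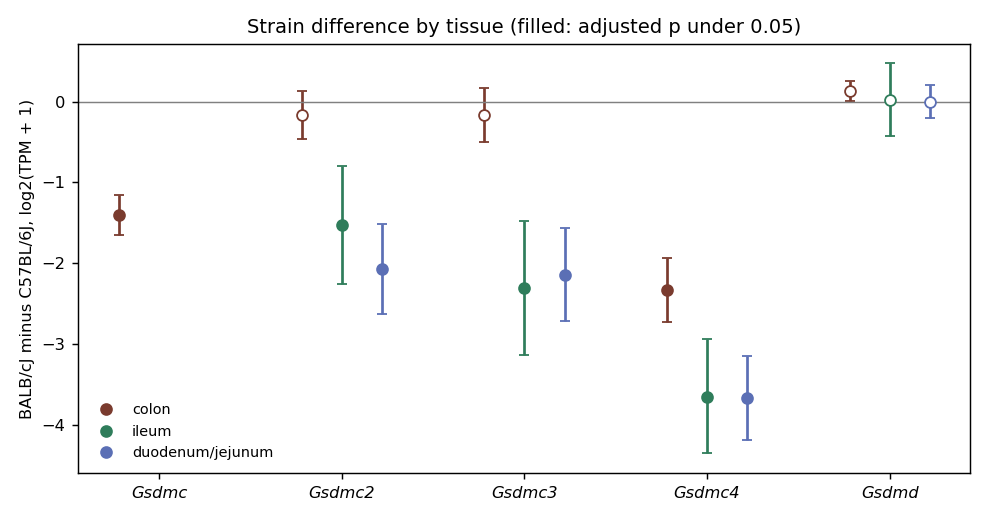
BALB/cJ minus C57BL/6J difference in log2(TPM + 1) for the 5 gasdermins that could be tested, by tissue, with 95% intervals. Filled points passed an adjusted p of 0.05. Gsdmc2 and Gsdmc3 lie near 0 in the colon and between -2.31 and -1.53 in the small intestine, while Gsdmc4 is below 0 in all 3 tissues and Gsdmd near 0 in all 3.

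In the ileum all 3 major copies were lower in BALB/cJ, Gsdmc4 by the widest margin. Gsdmc4 ranged from 1.4 to 4.65 TPM in BALB/cJ (median 3.18) and from 14.1 to 76.1 TPM in C57BL/6J (median 62), with no overlap. The lowest C57BL/6J value belongs to mouse 2, and the other 6 mice of that strain lay between 46.5 and 76.1 TPM. The means of 3.1 ± 1.07 and 54.1 ± 20.6 TPM were 17.4-fold apart, a log2 difference of -3.65 ± 0.33 (SE; limma, adjusted p = 2.1e-06). Without mouse 2 the difference was -3.94 (limma, adjusted p = 2.3e-09).

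Gsdmc3 was at 1.29 to 2.99 TPM in BALB/cJ ileum (mean 2.05 ± 0.621) and at 2.41 to 28.5 TPM in C57BL/6J ileum (mean 16.3 ± 7.95). The groups met only at the mouse 2 library, since the other C57BL/6J libraries were at 12 TPM or more. Its log2 difference was -2.31 ± 0.38 (SE; limma, adjusted p = 0.00093), and -2.66 without mouse 2. Gsdmc2 was at 6.32 to 18.1 TPM in BALB/cJ (mean 11.9 ± 3.91) and at 9.44 to 53.2 TPM in C57BL/6J (mean 38.5 ± 14.4), again overlapping only at mouse 2. Its log2 difference was -1.53 ± 0.34 (SE; limma, adjusted p = 0.00686), and -1.82 without mouse 2.

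Gsdmd was high in the ileum of both strains, with 111 to 224 TPM in BALB/cJ (mean 182 ± 39.1) and 119 to 329 TPM in C57BL/6J (mean 184 ± 68.6). The log2 difference of 0.02 had an interval from -0.43 to 0.47 (limma, adjusted p = 0.954). The 329 TPM is the mouse 2 library, and without it the C57BL/6J mean was 159 ± 26.3 TPM and the difference 0.17 (limma, adjusted p = 0.45). Gsdmc was listed at 0 in 4 of 6 BALB/cJ ileum libraries and was between 0.121 and 0.492 TPM in the 7 C57BL/6J ones. Gsdma was at 0.36 ± 0.102 and 0.415 ± 0.0813 TPM. Neither gene reached 1 TPM in any ileum library, so neither was tested; with no filter on low values Gsdmc was called in the ileum.

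In all, 3 of the 4 members tested in the ileum were called, each lower in BALB/cJ, against 20.4% of all 15537 genes tested. The median of all genes in this comparison was 0.17 higher in BALB/cJ on the log2 scale, so the 3 differences run against the general shift. Of all called genes 2677 were higher and 492 lower in BALB/cJ. Dividing by size factors removed the shift, made that split 942 and 882, and left all 3 members called. Of the cell type markers, 4 of 8 tested myeloid genes and 2 of 7 B and plasma cell genes were called higher in BALB/cJ ileum and 0 lower, and the part of these cells in the gasdermin differences was not tested. Of 11 tested small intestinal enterocyte markers, 0 were called in the ileum. Among the listed markers, Fabp6 was at 22.1 TPM in the ileum library of C57BL/6J mouse 2 and at 3766 TPM or more in the other ileum libraries. That library adds spread to such markers, so the 0 is not read as equal enterocyte content.

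The duodenum/jejunum repeated the ileal order at lower levels. Gsdmc4 was at 0.712 to 1.64 TPM in BALB/cJ (mean 1.04 ± 0.388) and at 11.5 to 52.1 TPM in C57BL/6J (mean 26.5 ± 12.4), without overlap. The 25.4-fold gap was -3.66 ± 0.24 on the log2 scale (SE; limma, adjusted p = 4.1e-08), with 2 BALB/cJ libraries at 1 TPM or more. Gsdmc3 stayed under 1 TPM in all 6 BALB/cJ mice, at 0.0752 to 0.546 TPM, and was at 2.15 to 13.5 TPM in C57BL/6J (mean 5.88 ± 3.70). Its log2 difference was -2.14 ± 0.27 (SE; limma, adjusted p = 5.8e-05), and it entered the test through its C57BL/6J values alone. Gsdmc2 was at 1.83 to 4.57 TPM in BALB/cJ (mean 3.18 ± 1.17) and at 7.49 to 33.9 TPM in C57BL/6J (mean 17.3 ± 8.06), also without overlap. It differed by -2.07 ± 0.26 (SE; limma, adjusted p = 6.4e-05).

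Mouse 2 was the highest C57BL/6J library for each of these 3 genes, and without it the differences were -3.48 for Gsdmc4, -1.93 for Gsdmc3 and -1.90 for Gsdmc2, all still called. Gsdmd did not follow: its means were 207 ± 23.2 TPM in BALB/cJ and 207 ± 22.9 TPM in C57BL/6J, and the difference of 0.00 had an interval from -0.20 to 0.21 (limma, adjusted p = 0.994). Gsdmc was listed at 0 in 5 of 6 BALB/cJ libraries and lay between 0.0617 and 0.638 TPM in C57BL/6J, and Gsdma was at 0.296 ± 0.161 and 0.314 ± 0.0409 TPM. Of the 4 members tested here 3 were called, all lower in BALB/cJ, and 9.50% of the 15306 genes tested were called. Gsdmc3 and Gsdmc4 passed the filter only through their C57BL/6J libraries, which favours that direction, so nothing is read from the count.

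The strain difference of the copies was not the same size along the gut. For Gsdmc2 and Gsdmc3 it was near 0 in the colon and several-fold in the small intestine, and for Gsdmc4 it was present throughout but larger in the small intestine. The test of the change itself, a strain by tissue term fitted over all 39 libraries, gave 1.91 ± 0.39 for Gsdmc2 (SE; limma, adjusted p = 0.00128) and 1.97 ± 0.43 for Gsdmc3 (adjusted p = 0.00252) between colon and duodenum/jejunum. Between colon and ileum Gsdmc3 gave 2.14 ± 0.43 (limma, adjusted p = 0.00123). A positive value means that BALB/cJ lay further below C57BL/6J in the small intestine than in the colon. Without mouse 2 these 3 values were 1.71, 1.76 and 2.49, and the Gsdmc3 terms stayed called under each of the 18 other settings tried.

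The same term was near the threshold for the others. Gsdmc4 gave 1.33 ± 0.39 against the duodenum/jejunum (SE; limma, adjusted p = 0.0349) and 1.32 ± 0.39 against the ileum (adjusted p = 0.0461), and Gsdmc2 gave 1.36 ± 0.39 against the ileum (adjusted p = 0.0384). Each of these 3 calls ended when 1 of several mice was left out. For Gsdmc4 against the duodenum/jejunum these were BALB/cJ mouse 2, 3 or 5 and C57BL/6J mouse 1, 3, 4, 5 or 7, with an adjusted p of up to 0.101. Against the ileum its call ended without BALB/cJ mouse 1, 2, 3, 4 or 5 or C57BL/6J mouse 1, 3, 4, 5, 6 or 7 (up to 0.123), and that of Gsdmc2 without BALB/cJ mouse 1, 2, 3 or 5 or C57BL/6J mouse 1, 3, 4, 5 or 7 (up to 0.0994). Without C57BL/6J mouse 2, in contrast, the 3 values were 1.16 (limma, adjusted p = 0.00841), 1.61 (0.00029) and 1.64 (0.00019). With the mouse as a block the term of Gsdmc4 against the ileum had an adjusted p of 0.0504. Gsdmc had the opposite sign, -1.06 against the ileum and -1.13 against the duodenum/jejunum. Its levels outside the colon are near 0, and with a pseudocount of 0.1 in place of 1 the values were -0.38 (limma, adjusted p = 0.624) and -0.62 (0.466). In all, 4 of 5 members were called for colon against ileum and 4 of 5 for colon against duodenum/jejunum, where 4.08% and 5.59% of 17126 genes were called. Each count includes Gsdmc, which has the opposite sign and was tested through its colon libraries alone, so nothing is read from these counts. Between ileum and duodenum/jejunum 0 of 5 members were called by limma and 0 had an unadjusted p under 0.05, with 3.92% of genes called. Gsdmd showed no called strain by tissue term, its values being 0.11, 0.13 and 0.02.

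Because the levels of neighbouring copies are estimated from partly shared reads, their sum and their shares were also taken in each library. The sum of Gsdmc2, Gsdmc3 and Gsdmc4 was 493 ± 143 TPM in BALB/cJ colon and 990 ± 98.2 TPM in C57BL/6J colon, 2.01-fold higher in C57BL/6J. In the ileum it was 17.1 ± 5.4 and 109 ± 42.4 TPM (6.38-fold), and in the duodenum/jejunum 4.64 ± 1.49 and 49.7 ± 24 TPM (10.7-fold). The mouse 2 libraries gave the lowest C57BL/6J sum in the ileum, 25.9 TPM, and the highest in the duodenum/jejunum, 99.5 TPM; the medians were 124 and 44.7 TPM. No BALB/cJ colon, at 329 to 733 TPM, reached the lowest C57BL/6J colon, at 805 TPM. The sum carries no test, and reads shared with the pseudogenes or lost to strain differences in sequence could still change it.

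**Figure D3:**
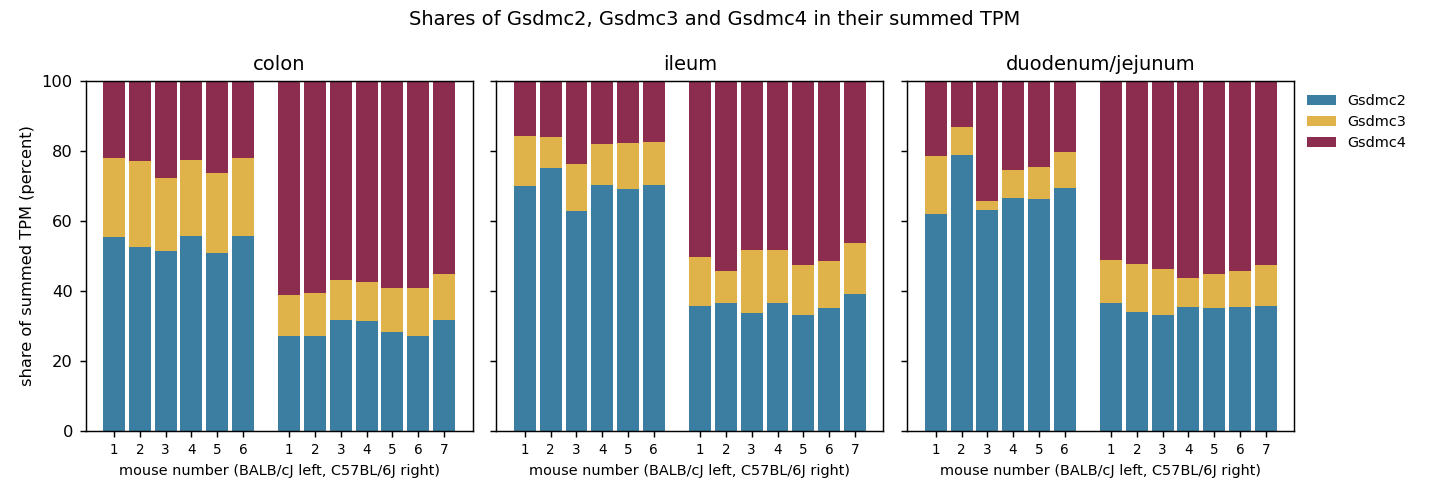
Share of Gsdmc2, Gsdmc3 and Gsdmc4 in their summed TPM, in percent, 1 bar per library, with BALB/cJ mice left and C57BL/6J mice right in each panel. Gsdmc2 takes 50.8% or more of the sum in all 18 BALB/cJ libraries and Gsdmc4 takes 46.2% or more in all 21 C57BL/6J libraries.

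The shares of Gsdmc2 and of Gsdmc4 in that sum separated the strains in all 39 libraries. These shares rest on the split among the copies, which is less certain than the sum. Gsdmc2 made up 53.6 ± 2.3% of it in BALB/cJ colon, 69.7 ± 3.93% in ileum and 67.6 ± 6.01% in duodenum/jejunum. In C57BL/6J it made up 29.1 ± 2.22%, 35.6 ± 1.92% and 35 ± 1.11%. Gsdmc4 took 24 ± 2.49%, 18.1 ± 2.93% and 23.2 ± 7.03% in BALB/cJ but 58.6 ± 2.05%, 50.2 ± 2.82% and 53.7 ± 1.78% in C57BL/6J. Gsdmc3 took 22.4 ± 1.18% in colon, 12.2 ± 1.9% in ileum and 9.12 ± 4.48% in duodenum/jejunum of BALB/cJ. In C57BL/6J it took 12.2 ± 0.894%, 14.1 ± 2.63% and 11.3 ± 1.94%, and the strains overlapped in ileum and duodenum/jejunum. The C57BL/6J mouse 2 libraries went with their strain in the Gsdmc4 share, since all C57BL/6J shares of Gsdmc4 lay between 46.2% and 61.2%.

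Set against Gsdmc2 in the same library, Gsdmc4 stood at 0.45 ± 0.0651 of its TPM in BALB/cJ colon and at 2.03 ± 0.217 in C57BL/6J colon. The highest BALB/cJ ratio in any tissue was 0.546 and the lowest C57BL/6J ratio 1.19. Gsdmc3 to Gsdmc2 did not follow that pattern: the ratio was 0.419 ± 0.03 and 0.423 ± 0.0523 in the colon of the 2 strains, but 0.177 ± 0.034 against 0.398 ± 0.0832 in the ileum. In the duodenum/jejunum it was 0.136 ± 0.0737 against 0.324 ± 0.0613. These ratios are descriptions and carry no test.

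**Figure D4:**
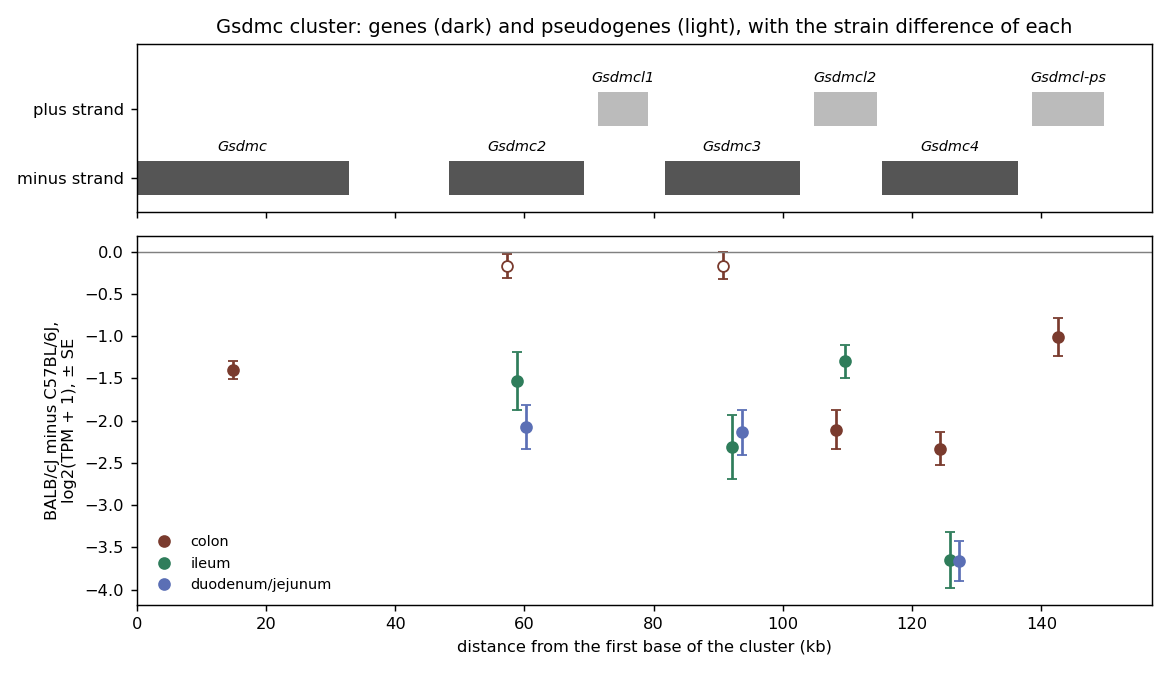
Genes of the Gsdmc cluster by distance in kb from its first base (upper panel; coding genes dark, pseudogenes light), and the BALB/cJ minus C57BL/6J difference in log2(TPM + 1) ± SE of each that could be tested (lower panel; filled where adjusted p is under 0.05). Gsdmc4 and the pseudogene Gsdmcl2 beside it are lower in BALB/cJ in the colon, while Gsdmc2 and Gsdmc3 are near 0 there.

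Other transcripts of the cluster were also lower in BALB/cJ. The pseudogene Gsdmcl2, which ends just before Gsdmc4, was at 8.84 ± 4.70 TPM in BALB/cJ colon and 37.9 ± 3.85 TPM in C57BL/6J colon, a log2 difference of -2.11 ± 0.23 (SE; limma, adjusted p = 1.1e-05). In the ileum it was at 0.232 ± 0.109 and 2.18 ± 1.12 TPM, with -1.30 ± 0.19 (adjusted p = 0.00031), a test it entered through 6 C57BL/6J libraries alone and could not be given without mouse 2. Gsdmcl-ps was at 1.7 ± 0.612 and 4.69 ± 2.25 TPM in the colon, with -1.01 ± 0.23 (adjusted p = 0.00541). Of their 31-base words, 26.7% and 36.3% are shared with other family genes, and the part of shared reads in these differences was not tested. Fam49b and Asap1, the next tested genes on the Gsdmc4 side, were not called in any tissue. Fam49b had 29.5 and 28.2 TPM in the colon of BALB/cJ and C57BL/6J, and Asap1 had 20.1 and 20 TPM. Adcy8, an adenylate cyclase gene farther out on the same side, was lower in BALB/cJ duodenum/jejunum, at 1.07 against 2.79 TPM (-0.80, limma, adjusted p = 0.0143). In the ileum it was at 3.69 against 8.57 TPM (-0.89, adjusted p = 0.0598).

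Where along the gut the members were highest was shared by both strains for the Gsdmc copies. In BALB/cJ, colon minus ileum was 4.37 ± 0.29 for Gsdmc2, 5.17 ± 0.31 for Gsdmc3 and 4.85 ± 0.29 for Gsdmc4 on the log2 scale (SE, limma, largest adjusted p = 1.2e-15). In C57BL/6J the same contrasts were 3.01 ± 0.27, 3.03 ± 0.29 and 3.54 ± 0.27 (largest adjusted p = 2.5e-11). As folds of mean TPM, Gsdmc4 was 38.9-fold higher in colon than ileum in BALB/cJ and 10.7-fold in C57BL/6J. Without mouse 2 the C57BL/6J values fell to 2.73, 2.68 and 3.25 and remained called.

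Toward the duodenum/jejunum the levels fell again. Colon minus duodenum/jejunum was 5.99, 6.26 and 5.83 for Gsdmc2, Gsdmc3 and Gsdmc4 in BALB/cJ and 4.08, 4.29 and 4.51 in C57BL/6J, or 4.27, 4.50 and 4.68 without mouse 2. Ileum minus duodenum/jejunum was 1.62 ± 0.29 (limma, adjusted p = 3.6e-05), 1.09 ± 0.31 (0.00541) and 0.98 ± 0.29 (0.00603) in BALB/cJ. In C57BL/6J it was 1.07 ± 0.27 (0.0055), 1.26 ± 0.29 (0.00293) and 0.97 ± 0.27 (0.0125). The last of these calls ended without mouse 1, 3, 4, 5 or 6, with an adjusted p of up to 0.0781. Without mouse 2 the 3 C57BL/6J differences were 1.54, 1.82 and 1.43, with adjusted p of 1.5e-06 or less. The order colon, ileum, duodenum/jejunum therefore held for all 3 copies in both strains, and the last step in C57BL/6J is the one that rests most on which mice are included.

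Gsdmc was likewise highest in the colon within its low range. It reached 1 TPM in colon libraries only, so it entered the fit through the tissue where it is high, which favours this direction. Colon minus ileum was 0.86 ± 0.10 in BALB/cJ and 1.92 ± 0.09 in C57BL/6J (SE, limma, adjusted p = 5.2e-09 and 1.4e-19). Without mouse 2 the latter was 1.90, and its ileum and duodenum/jejunum were not called different in either strain, with or without that mouse. Gsdma had its highest means in the colon too. Its colon values ran from 0.555 to 0.967 TPM, and all its small intestinal values were at 0.552 TPM or less. It did not pass the 1 TPM filter, and it was called between colon and each small intestinal tissue in both strains once that filter was dropped.

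Gsdmd ran the other way. Colon minus ileum was -1.06 ± 0.15 in BALB/cJ and -1.17 ± 0.14 in C57BL/6J (SE, limma, adjusted p = 1.9e-07 and 2.6e-09), a 2.15-fold and 2.38-fold higher mean in the ileum. Against the duodenum/jejunum the values were -1.27 ± 0.15 and -1.41 ± 0.14 (adjusted p = 2.1e-09 and 3.2e-11). Without mouse 2 the C57BL/6J values were -1.04 and -1.44, both called. Its highest colon library, at 92.2 TPM, was below its lowest small intestinal library, at 111 TPM. Ileum and duodenum/jejunum were not called different in BALB/cJ (-0.21, adjusted p = 0.253) or in C57BL/6J (-0.23, adjusted p = 0.337), but without mouse 2 the C57BL/6J value was -0.41 with an adjusted p of 0.0114.

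Counted by contrast, 5 of 5 tested members were called for colon against ileum in BALB/cJ, where 46.1% of 17126 genes were called, and 5 of 5 in C57BL/6J, where 61.7% were. For colon against duodenum/jejunum it was 5 of 5 in both, beside 63.5% and 64.6% of all genes. Gsdmc is among these and was tested through its colon libraries alone. For ileum against duodenum/jejunum it was 3 of 5 in both, beside 43.1% in BALB/cJ and 11.3% in C57BL/6J. With most genes called between colon and small intestine, the counts say little about the gasdermins in particular, and it is the size of the differences that is given here. The median of all genes in these contrasts lay between 0.04 and 0.29.

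Other gasdermin genes in the tables help to place the members. Gsdme, listed under its older name Dfna5, was an ileal transcript. Its means were 98.8 ± 21.1 TPM in BALB/cJ ileum, 16.3 ± 2.97 in colon and 18 ± 3.22 in duodenum/jejunum. C57BL/6J gave 84.6 ± 32.8, 21.4 ± 3.24 and 26.7 ± 15.1 TPM. For mouse 2 it was at 19.4 TPM in the library labelled ileum and 59.2 TPM in that labelled duodenum/jejunum, in the direction of Fabp6. In the colon it was lower in BALB/cJ by -0.37 ± 0.12 (SE; limma, adjusted p = 0.0345), a call that ended under 11 of 18 other settings. Gsdma2 rose from 1.33 and 1.31 TPM in colon to 4.47 and 3.75 TPM in duodenum/jejunum of BALB/cJ and C57BL/6J and was not called between strains. Gsdma3, Dfnb59 (pejvakin) and Gsdmcl1 had group means of 0.32 TPM or less.

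Upstream of Gsdmd stand the inflammasome sensors, their adaptor and the caspases. The adaptor Pycard, also called ASC, was at 70 to 95.3 TPM in BALB/cJ colon and 142 to 175 TPM in C57BL/6J colon, a difference of -0.98 ± 0.07 (SE; limma, adjusted p = 1.6e-07). It was -1.10 ± 0.17 in the duodenum/jejunum (adjusted p = 0.00048). In the ileum it was -0.52 (adjusted p = 0.0385), a call that ended under 12 of 18 other settings. Without C57BL/6J mouse 2, whose ileum library goes against its label, the ileum value was -0.67 (limma, adjusted p = 7e-05). The sensor Nlrp1b was at 0.403 ± 0.169 TPM in BALB/cJ colon and 8.33 ± 1.41 TPM in C57BL/6J colon, and its differences of -2.73, -2.31 and -2.49 in colon, ileum and duodenum/jejunum were all called. It passed the filter only through its C57BL/6J libraries. Nlrp1b belongs to a group of near-identical genes that differ in sequence between strains, so these values are uncertain. Naip6, a flagellin sensor component of another multigene family, differed by -0.89 in colon and -0.67 in ileum, both called, and by -0.62 in duodenum/jejunum (adjusted p = 0.0345), a call that ended under 11 of 18 other settings. Aim2, which binds DNA, was lower in BALB/cJ colon by -0.52 (adjusted p = 1.3e-05) but higher in ileum by 0.75 (0.00972) and in duodenum/jejunum by 1.04 (0.0016).

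Of the 19 sensors and adaptors listed, 4 of 16 tested were higher and 4 lower in BALB/cJ colon, 3 and 3 of 17 in ileum, and 1 and 4 of 17 in duodenum/jejunum. The list medians were -0.04, 0.13 and -0.06, beside 0.02, 0.17 and 0.01 for all genes. Among them Gbp3, a guanylate-binding protein, was higher in BALB/cJ colon by 1.57 (limma, adjusted p = 8.3e-07).

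Among the proteases that cut gasdermins, Casp1 and Casp8 differed between strains. Casp1, which cuts Gsdmd, was at 147 to 166 TPM in BALB/cJ colon and 118 to 144 TPM in C57BL/6J colon, higher in BALB/cJ by 0.23 ± 0.05 (SE; limma, adjusted p = 0.00256). It was higher by 0.33 in the ileum (adjusted p = 0.00861) and differed by 0.03 in the duodenum/jejunum (adjusted p = 0.921). With size factors, which take out the general ileal shift, the ileum value was 0.15 and not called (adjusted p = 0.397). Casp8 was lower in BALB/cJ by -0.34 in colon (adjusted p = 0.00133) and -0.39 in duodenum/jejunum (0.00651), and by -0.21 without a call in ileum (0.183). Casp4, the sensor of intracellular lipopolysaccharide, was not called in any tissue, with -0.47 in duodenum/jejunum (adjusted p = 0.129). Of the 6 proteases tested, 2 were higher and 1 lower in colon, 1 higher in ileum and 1 lower in duodenum/jejunum. The 2 higher in colon were Casp1 and Casp6, the latter by 0.18 (adjusted p = 0.0323), a call that ended under 10 of 18 other settings.

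Downstream, Il18 is the cytokine of this pathway that epithelium makes. It was at 122 ± 20.2 and 126 ± 25.4 TPM in BALB/cJ and C57BL/6J colon and was not called there (limma, adjusted p = 0.87). In the ileum it was lower in BALB/cJ, at 25 ± 6.48 against 54.4 ± 28.3 TPM (-0.99, adjusted p = 0.0305), a call that ended under 9 of 18 other settings. Il1b, mostly a myeloid cytokine, was low everywhere and was higher in BALB/cJ colon, at 2.57 ± 1.10 against 1.05 ± 0.945 TPM (0.83, adjusted p = 0.0253), beside the higher myeloid markers there. That call ended without BALB/cJ mouse 4 (adjusted p = 0.0558) or 5 (0.0631) or C57BL/6J mouse 5 (0.0515), and with a replicate block (0.098). Il1rn, which blocks the interleukin 1 receptor, was higher in BALB/cJ colon too, at 51.4 ± 5.63 against 38.1 ± 5 TPM (0.42, adjusted p = 0.0035). Ninj1, which breaks the membrane after pores form, was higher in BALB/cJ ileum, at 12.7 ± 1.55 against 8.45 ± 1.60 TPM (0.54, adjusted p = 0.00847), and was not called in the other tissues. With size factors the ileum value was 0.37 and not called (adjusted p = 0.0639). Of the 8 tested genes of this list, 2 were higher in colon, 2 higher and 1 lower in ileum, and 0 were called in duodenum/jejunum. The second one higher in ileum was Il1a, by 0.55 (adjusted p = 0.0144). Il33, Il18bp and Hmgb1 were not called in any tissue. Il18bp gained a call under 3 of 18 other settings in ileum, where it was -0.45 without C57BL/6J mouse 2 (limma, adjusted p = 0.0238). It gained a call under 1 of 18 in duodenum/jejunum.

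Among genes that regulate gasdermins or repair their pores, Irf2, an activator of Gsdmd transcription, was not called in any tissue, with differences of 0.15, 0.06 and 0.13. Chmp4b, of the ESCRT machinery that reseals pores, was lower in BALB/cJ by -0.14 in colon, -0.34 in ileum and -0.47 in duodenum/jejunum, and was called in each. Of 14 genes tested, 1 was higher and 1 lower in colon, 2 and 1 in ileum, and 0 and 2 in duodenum/jejunum. The 2 higher in ileum were Lamtor1, by 0.25, and Rraga, by 0.29, which anchor nutrient sensing at the lysosome. Both calls ended under 4 of 18 other settings, and with size factors the values were 0.06 (adjusted p = 0.735) and 0.12 (0.304). Irf1 and Trim21 were not called in any tissue. Irf1 gained a call under 2 of 18 other settings in duodenum/jejunum, and Trim21 under 2 of 18 in colon.

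**Figure D5:**
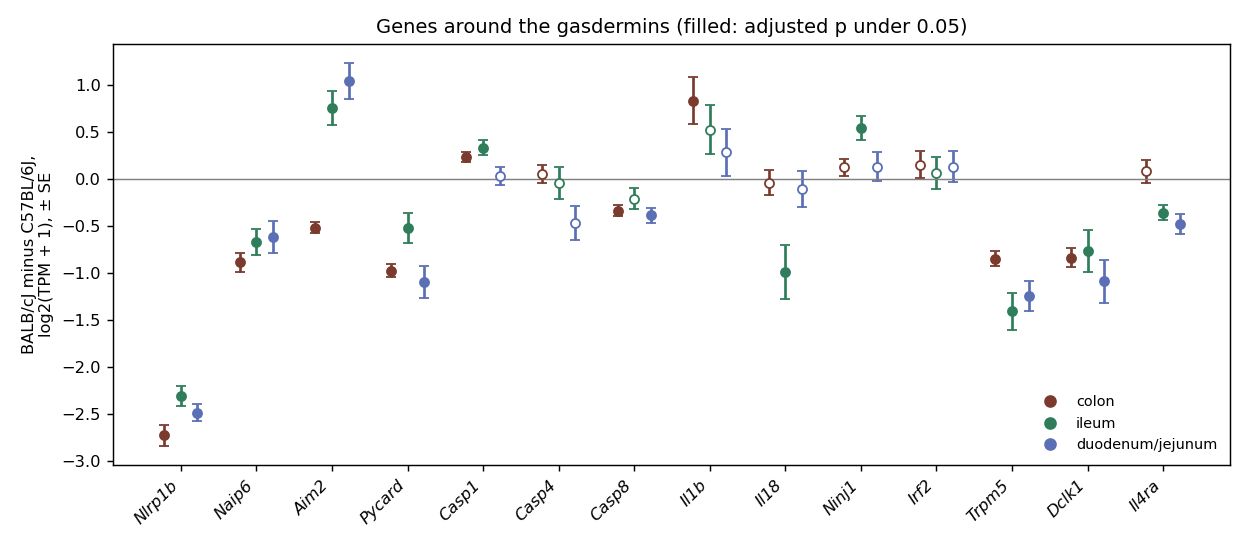
BALB/cJ minus C57BL/6J difference in log2(TPM + 1) ± SE for 14 genes of the gasdermin and type 2 pathways, by tissue. Filled points passed an adjusted p of 0.05. Nlrp1b, Naip6, Pycard, Trpm5 and Dclk1 are below 0 in all 3 tissues, and Casp4 and Irf2 have no filled point.

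The type 2 response, known to induce the Gsdmc copies, was followed through 17 genes. Trpm5, the taste-type channel of tuft cells, was lower in BALB/cJ in each tissue. It was at 4.35 ± 0.679 against 8.57 ± 0.644 TPM in colon (-0.85, limma, adjusted p = 3.7e-06), with no overlap, and the differences were -1.41 in ileum (0.00023) and -1.25 in duodenum/jejunum (6.6e-05). Dclk1, another tuft cell marker, was lower by -0.84, -0.77 and -1.09 in colon, ileum and duodenum/jejunum. Its ileum call ended without BALB/cJ mouse 1, 4, 5 or 6, at adjusted p values of 0.0521 to 0.0581. Il4ra, a receptor chain for interleukins 4 and 13, was not called in colon (0.08) and was lower in BALB/cJ by -0.36 in ileum (adjusted p = 0.0072) and -0.48 in duodenum/jejunum (0.0126). Stat6 was not called in any tissue. Areg, a growth factor of type 2 immunity, was higher in BALB/cJ duodenum/jejunum by 0.83 (adjusted p = 0.00568), and Clca1, a goblet cell product, in the colon by 0.43 (0.0285), a call that ended under 8 of 18 other settings. Of the genes tested, 1 of 9 was higher and 2 lower in colon, 0 and 3 of 8 in ileum, and 1 and 3 of 7 in duodenum/jejunum. The list medians were -0.11, -0.15 and -0.07, beside 0.02, 0.17 and 0.01 for all genes. Whether tuft cell number or type 2 signals had a part in the gasdermin differences was not tested.

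Of the members, only Gsdmc3 had an entry in the RefSeq promoter table used here, and its 250 bases upstream of the start are shown because the strain difference of Gsdmc3 changed between tissues under every setting tried. They are chr15:63878559-63878808 on the minus strand (GRCm38.p6), written 5′ to 3′, with the 1 motif found in capitals.
Gsdmc3 promoter: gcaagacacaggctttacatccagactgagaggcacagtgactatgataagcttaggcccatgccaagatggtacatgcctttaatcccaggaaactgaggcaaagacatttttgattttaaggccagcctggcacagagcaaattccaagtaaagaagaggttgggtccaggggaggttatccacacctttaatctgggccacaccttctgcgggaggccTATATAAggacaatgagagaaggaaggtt
Searched on both strands, the window held no Stat6 motif (TTC and GAA with 4 free bases between them), no interferon regulatory factor motif (GAAA, 2 free bases, GAAA), no TTTATG (Cdx factors) and no TATAAA. Of 32851 promoters of the same length, 5.85%, 2.98%, 10.8% and 12.4% hold these. The variant TATATAA, which was added to the search after the window was seen, starts at -29 and is present in 3.04% of promoters. These are matches of letters and not shown sites.

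The genes whose pattern over the 6 group means was most like that of each member were taken by the smallest root mean square difference of centred log2(TPM + 1). For Gsdmc2 and Gsdmc3 the nearest was Tfcp2l1, at 0.49 and 0.60, with 108 and 154 TPM in BALB/cJ and C57BL/6J colon and 5.55 and 18.7 TPM in ileum. S100a14 came next for both. For Gsdmc4 the nearest were Sprr2a1, at 0.90, and Sprr2a2, at 1.10, small proline-rich genes of a family with near-identical copies. Sprr2a1 had 70.6 TPM in BALB/cJ colon and 569 TPM in C57BL/6J colon. Nearest to Gsdmc was Slc35g2, at 0.14, and to Gsdmd Mtmr4, at 0.05, with 36 and 34.4 TPM in colon and 72 and 76.1 TPM in ileum. A flat pattern gives small differences, so these distances are not to be ranked between members. The 6 means come from libraries that share mice.

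Within the colon, the deviations of the summed Gsdmc2, Gsdmc3 and Gsdmc4 from the strain mean went closely with those of Gadd45g (r = 0.82 over 13 libraries), Fcna (0.82) and Arl3 (0.81). Those of Gsdmd went with Top2b (0.91), Nnat (0.87) and BC064078 (0.86). These are among the highest of many genes in 13 libraries and are given as descriptions.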

How the data were processed

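The authors deposited 1 table per tissue with 1 column per library, holding log2(TPM + 1) values for 34600 entries, as the values themselves show. Per the submitters' processing notes, transcripts were quantified with kallisto 0.44.0 on GRCm38; no source used here names the transcript annotation. Back-transformed library totals were 979558 to 996230 TPM. No column was left unmapped, and no library pair was identical. Libraries were grouped by the labels' strain and tissue, and each mouse number names the same animal in 3 tissues. The 26 names that a spreadsheet had turned into dates were left out of tests.

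Strains were compared in each tissue, and tissues and strain by tissue terms in 1 fit of 6 groups, with limma 3.58.1 (R 4.3.3, variance trend) on log2(TPM + 1). Genes needed at least 1 TPM in at least 6 libraries. Calls had a Benjamini-Hochberg adjusted p under 0.05 over all genes tested. Fold changes on the log2(TPM + 1) scale understate those of low genes. A self-check on simulated tables was run. The 18 alternatives were a pseudocount of 0.1, median-of-ratios size factors, no filter, no variance trend, a replicate block and each of 13 mice left out.

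The mouse is the same animal across tissues, so its number pairs them: deviations from group means correlated at a median of 0.15 (-0.16 to 0.38) between tissues of a mouse. Equal numbers in the 2 strains are different animals (median -0.025). The members and gene lists were chosen with earlier results of these data known. All members were named, and of each pathway list up to 3 with the smallest adjusted p in each strain comparison, plus Casp1, Casp4, Casp8, Il18, Il1b, Pycard, Ninj1 and Irf2 always; some genes under these rules are not reported here. Stat6, Fam49b, Asap1 and Adcy8 lie outside this rule and were chosen after their values were seen. Genes of like pattern were the 5 nearest with a mean of at least 5 TPM in a group. Gene positions and transcripts come from GENCODE and promoters from RefSeq.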

Additional observations from a re-analysis of the deposited data

Results flagged for a closer look

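In 9 of 36 groups of a member's values, 1 library lay far from the rest by Dixon's test. Its rate of about 1 group in 20 by chance holds for normally distributed values. The test was run on TPM, with some groups mostly at 0, so the 9 are not set against that rate. With 5 of 6 libraries at 0, as for Gsdmc in BALB/cJ duodenum/jejunum, any value above 0 is flagged. In C57BL/6J mouse 2, the library labelled duodenum/jejunum held 33.9 TPM of Gsdmc2, 13.5 TPM of Gsdmc3 and 52.1 TPM of Gsdmc4, each above the other 6 libraries, and the library labelled ileum held 329 TPM of Gsdmd. In BALB/cJ, Gsdmc reached 0.0922 TPM in the ileum of mouse 4 and 0.0388 TPM in the duodenum/jejunum of mouse 6, where most libraries are listed at 0. Gsdmc3 was low, at 0.0752 TPM, in the duodenum/jejunum of BALB/cJ mouse 3 and, at 89.9 TPM, in the colon of C57BL/6J mouse 4. Gsdma was at 0.224 TPM in the duodenum/jejunum of C57BL/6J mouse 7.

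The strain difference itself changed between tissues, by a called strain by tissue term, in 8 cases. Colon minus ileum gave -1.06 for Gsdmc, 1.36 for Gsdmc2, 2.14 for Gsdmc3 and 1.32 for Gsdmc4. Colon minus duodenum/jejunum gave -1.13, 1.91, 1.97 and 1.33 for the same genes. With a pseudocount of 0.1 the Gsdmc terms were -0.38 and -0.62, and neither was called. The calls of Gsdmc4 in both contrasts, and of Gsdmc2 against the ileum, ended when single mice were left out.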

How the results depend on the processing

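Over the 18 alternatives, single-member results kept their direction in each case where they were called: 1002 stayed on their side of the threshold, 40 lost a call and 2 gained one, and of the other named genes' strain results 1695 stayed, 107 lost and 10 gained a call. The strain calls of Gsdmc4, and of Gsdmc2 and Gsdmc3 in the small intestine, held under all of them. The count of 4 members whose strain difference changed between colon and ileum fell to 2 with a pseudocount of 0.1 and to 2 with no filter on low values, and was between 2 and 4 with 1 mouse left out. In the paired fit with the mouse as replicate block it was 3, as Gsdmc4 had an adjusted p of 0.0504, and the block changed no other call of a member. Between strains, where numbers pair no animals, that block gave 2 called members in the colon and 3 in each small intestinal tissue, as without it; C57BL/6J mouse 7 has no partner and adds nothing to that fit. It ended the ileum calls of Aim2 (adjusted p = 0.0772), Chmp4b (0.0717), Il4ra (0.0792) and Il1a (0.0826) and the colon calls of Chmp4b (0.0784) and Gsdmcl-ps (0.055), among others. The number of all genes called between strains in the ileum was 3169, but 1824 with size factors, 929 with the block and 1948 without BALB/cJ mouse 5. Called genes between ileum and duodenum/jejunum in C57BL/6J numbered 1940, but 3510 without mouse 2 and 1132 to 1206 without mouse 4, 5 or 6. For the strain by tissue term of these tissues the 672 calls became 122 with size factors, 391 with no filter and 188 to 1017 with 1 mouse left out. Size factors also moved the split of calls into higher and lower in the first-named tissue: for colon against ileum in BALB/cJ 5190 higher and 2713 lower became 3952 and 3738, in C57BL/6J 7963 and 2596 became 4891 and 4595, and for colon against duodenum/jejunum in BALB/cJ 8392 and 2486 became 5040 and 4933, in C57BL/6J 8452 and 2619 became 4864 and 4762. For ileum against duodenum/jejunum in BALB/cJ 6074 and 1306 became 2813 and 2925, and for the strain by tissue terms 249 and 449 became 333 and 199 (colon, ileum) and 628 and 44 became 52 and 70 (ileum, duodenum/jejunum). Depth is unknown, so levels under 1 TPM carry no stated precision.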
